A study of Homo sapiens with 6 samples.

Results

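ATP9A, ATP9B, ATP8B1, ATP8B2, ATP11A and ATP11B encode P4-ATPases, TMEM30A encodes the subunit that many P4-ATPases require, and ESYT1 and ESYT2 encode extended synaptotagmins. These 9 genes were followed among 63677 identifiers of the count table, and all 9 were among the 15099 genes with enough reads to be tested. ATP9A and ESYT2 were chosen by their higher counts after RBM3 silencing in the same 6 libraries, so their difference between the groups is described here with no test. The other 7 genes were taken as paralogs or as the shared subunit, and not for their values.

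RNA was sequenced from T24 cells, an established human urinary bladder cancer cell line, 3 libraries per group. The siRBM3 group had received an siRNA pool against RBM3, and the control group a non-targeting siRNA. Both groups were transfected at 25 nM for 4.5 h and harvested on the next day. All values come from 1 cell line, and nothing in the labels says whether replicates were separate cultures, so the p-values measure only the spread between these libraries, which may be technical.

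P4-ATPases are flippases. They use ATP to move phospholipids such as phosphatidylserine and phosphatidylethanolamine from the outer to the cytosolic leaflet of a membrane, and most of them leave the endoplasmic reticulum only when bound to a CDC50 protein, chiefly CDC50A, the product of TMEM30A. ATP9A and ATP9B are exceptions that do not need a CDC50 protein and are known from endosomes and the trans-Golgi network. Extended synaptotagmins are anchored in the endoplasmic reticulum, bind the plasma membrane through their C2 domains and transfer glycerolipids between these membranes.

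The libraries held 23603992 to 45098612 counts. Levels are given as CPM, that is, reads of a gene scaled to the library total with TMM factors. RBM3, the targeted gene, was at 225, 368 and 301 CPM in the control libraries (replicates 1, 3 and 5, the order used throughout), against 54.1, 90.1 and 58.4 CPM with siRBM3 (replicates 3, 4 and 5). It was thus lower in every siRBM3 library (log2 fold change -2.14, SE 0.24, n = 3 per group, edgeR adjusted p = 0.0822, exact permutation p = 0.1). An exact two-sided permutation test of 3 against 3 libraries cannot go below 0.1. Mitochondrial genes took 1.63% to 2.86% of the counts in the control libraries and 2.33% to 9.40% in the siRBM3 libraries, the highest share being in siRBM3 replicate 3, which was also the deepest library. Of the marker genes, 6 of 7 epithelial genes had a mean of at least 1 CPM, with CDH1 below it, and their summed level was 5066 to 5872 CPM in control and 4208 to 4306 CPM in siRBM3 libraries. KRT7, a simple epithelial keratin, had 3167 ± 70.5 and 2441 ± 94.9 CPM (SD, n = 3 per group). Its log2 fold change was -0.38 (edgeR adjusted p = 0.170, DESeq2 adjusted p = 0.00967). Of 9 urothelial genes 5 reached 1 CPM, with sums of 198 to 203 and 199 to 211 CPM. Most of these sums came from PPARG (means of 143 and 137 CPM in control and siRBM3) and FOXA1 (43.3 and 49.2). GATA3 was lower (10.75 and 13.86), and UPK2 (1.42 and 1.79) and UPK3B (0.76 and 1.42) were near 1 CPM. UPK1A, UPK1B, UPK3A and KRT20 had at most 0.339 CPM in any library. Leukocyte genes reached 1 CPM in 1 of 6 cases, namely CD14, with sums of 2.56 to 3.44 and 2.41 to 2.99 CPM. Endothelial genes reached it in 1 of 4, namely CDH5, with sums of 27.9 to 34.0 and 33.9 to 40.8 CPM, and fibroblast and muscle genes in 3 of 7, with sums of 14.0 to 15.4 and 13.5 to 18 CPM. The part of these differences in the values below was not tested. In bulk RNA, fewer cells that hold a transcript and less of it per cell cannot be told apart.

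ATP9A, the endosomal P4-ATPase, lies on the minus strand of chromosome 20 at chr20:50213053-50384929 (GRCh37, ENSG00000054793). The control libraries were at 89.4, 73.5 and 106 CPM. The siRBM3 libraries were at 193, 191 and 183 CPM. The lowest siRBM3 library therefore lay above the highest control library, and the siRBM3 libraries differed from each other far less than the control libraries did. The group means were 89.7 ± 16.3 and 189 ± 5.17 CPM (SD, n = 3 per group), a fold of 2.11 and a log2 fold change of 1.08 (SE 0.13). These values rest on 1921 to 7912 reads per library. The log2 fold change of ATP9A stood at percentile 99.5 of the tested genes, a position fixed by the way the gene was chosen. None of its exonic bases was shared with another annotated gene, and none of its 8070 words of 75 bases, the length of a read, occurred in the transcripts of another gene.

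ATP9B, the closest paralog of ATP9A, lies at chr18:76829285-77138287 on the plus strand (ENSG00000166377). It had 16.2, 18.1 and 16.8 CPM in the control libraries and 22.5, 18.5 and 18.6 CPM in the siRBM3 libraries. Each siRBM3 library was above each control library, although siRBM3 replicates 4 and 5 exceeded control replicate 3 by less than 1 CPM. Its log2 fold change was 0.23 (SE 0.13, 95% interval -0.08 to 0.53), and it did not pass the test (edgeR adjusted p = 0.513, exact permutation p = 0.1). Without siRBM3 replicate 3 it was 0.13. A lncRNA on the opposite strand covered 4.88% of the ATP9B exonic bases and had no count in any library.

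**Figure D1:**
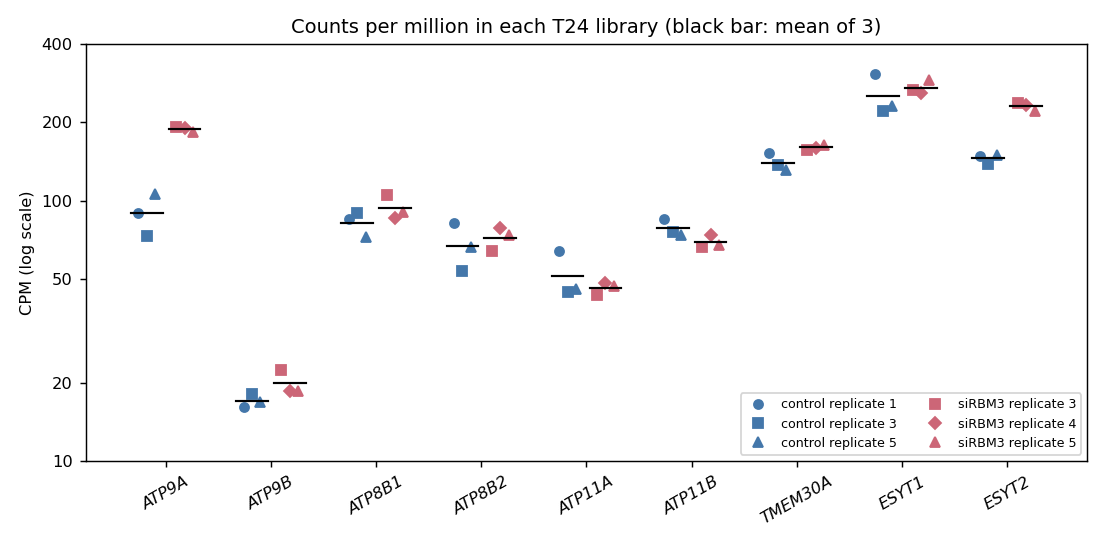
Level of each of the 9 genes in CPM on a log axis, with 1 point per library, control in blue and siRBM3 in red, and a black bar at the mean of 3 libraries. The siRBM3 points of ATP9A (183 to 193) and ESYT2 (221 to 238) lie clear of the control points, whereas for ATP8B1, ATP8B2, ATP11A and ESYT1 the groups overlap.

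The promoters of ATP9A and ATP9B are printed because these paralogs differed in level and because ATP9A had been chosen for its difference between the groups. They are RefSeq sequences on GRCh38.p14, 250 bases before to 50 bases after the annotated start, written 5′ to 3′ on the strand of the gene. Of the 9 genes, 6 were found in this promoter table. Capitals mark GC boxes (GGGCGG or CCGCCC) and the core of the cAMP response element (TGACGT or ACGTCA), both searched on both strands. The positions are chr20:51768341-51768640 on the minus strand for ATP9A and chr18:79069144-79069443 on the plus strand for ATP9B.
ATP9A: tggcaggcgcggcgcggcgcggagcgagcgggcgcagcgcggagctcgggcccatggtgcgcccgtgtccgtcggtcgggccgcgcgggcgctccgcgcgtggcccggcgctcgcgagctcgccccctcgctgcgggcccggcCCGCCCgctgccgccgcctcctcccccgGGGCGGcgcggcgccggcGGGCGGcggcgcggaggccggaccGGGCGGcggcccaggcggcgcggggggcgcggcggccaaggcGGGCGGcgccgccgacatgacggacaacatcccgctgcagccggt
ATP9B: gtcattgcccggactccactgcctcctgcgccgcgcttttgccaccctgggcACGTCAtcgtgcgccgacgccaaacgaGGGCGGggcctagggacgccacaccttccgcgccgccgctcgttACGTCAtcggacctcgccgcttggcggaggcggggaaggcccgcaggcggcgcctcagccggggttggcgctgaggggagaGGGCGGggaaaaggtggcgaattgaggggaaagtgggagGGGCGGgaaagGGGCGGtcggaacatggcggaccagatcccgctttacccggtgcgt

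G and C made up 86.3% of the bases of the ATP9A window, which was at percentile 99.9 of 35116 promoters of that length, whose median was 58.7%. The window held 65 CG dinucleotides, 5 GC boxes and no TGACGT or ACGTCA. In the ATP9B window G and C made up 70.3% of the bases, with 37 CG dinucleotides, 4 GC boxes and 2 copies of ACGTCA. At least 1 GC box was present in 45% of all promoters and at least 3 in 15.8%, whereas the cAMP response element core was present in 7.98%. Those promoters were not matched for GC content. A match of letters is a description of the window and no evidence of binding.

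ATP8B1 and ATP8B2 are class 1 P4-ATPases that work with CDC50A, and inherited loss of ATP8B1 causes intrahepatic cholestasis. ATP8B1 (chr18:55313658-55470547, minus strand, ENSG00000081923) had 85.2, 89.4 and 72.7 CPM in control and 106, 85.6 and 90.8 CPM in siRBM3 libraries. The groups overlapped. Its log2 fold change was 0.19 (SE 0.12, 95% interval -0.09 to 0.46, edgeR adjusted p = 0.548, exact permutation p = 0.2). Without siRBM3 replicate 3, the highest library, it was 0.10. Exons on the opposite strand, of ATP8B1-AS1 and a lncRNA, covered 9.23% of the ATP8B1 exonic bases, and ATP8B1-AS1 had 0.13 ± 0.12 CPM in control and 0.12 ± 0.04 CPM in siRBM3 libraries. ATP8B2 (chr1:154298001-154323780, plus strand, ENSG00000143515) had 81.8, 53.8 and 66.3 CPM in control and 64.1, 78.7 and 73.7 CPM in siRBM3 libraries. Control replicate 1 was the highest of all 6 libraries and control replicate 3 the lowest. The log2 fold change of ATP8B2 was 0.10 (SE 0.16, 95% interval -0.26 to 0.46, edgeR adjusted p = 0.837, exact permutation p = 0.7), and without control replicate 3 it was -0.04.

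ATP11A and ATP11B belong to the class of P4-ATPases known for flipping phosphatidylserine and phosphatidylethanolamine, ATP11A at the plasma membrane and ATP11B in recycling endosomes. ATP11A (chr13:113344352-113541482, plus strand, ENSG00000068650) had 64.4, 44.7 and 45.8 CPM in control and 43.3, 48.3 and 47.2 CPM in siRBM3 libraries. Control replicate 1 stood alone above the other 5 libraries, which lay close together. Its log2 fold change was -0.16 (SE 0.15, 95% interval -0.51 to 0.19, edgeR adjusted p = 0.706, exact permutation p = 0.8), and without control replicate 1 it was 0.03. ATP11B (chr3:182511291-182639417, plus strand, ENSG00000058063) had 84.9, 75.9 and 74.2 CPM in control and 66.2, 74.2 and 67.6 CPM in siRBM3 libraries. Each siRBM3 library was below each control library, but control replicate 5 and siRBM3 replicate 4 were equal to 3 digits. The log2 fold change was -0.18 (SE 0.10, 95% interval -0.40 to 0.05, edgeR adjusted p = 0.499, exact permutation p = 0.1). Without control replicate 1 it was -0.12.

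All P-type ATPases form a phosphorylated intermediate on the aspartate of a conserved Asp-Lys-Thr-Gly motif. The codons of this motif are printed to show that 5 of the P4-ATPase genes hold the same protein motif in different bases, so that a read over it can be assigned to 1 of them. Each line gives 27 bases of the coding sequence, 5′ to 3′ on the strand of the gene, from GENCODE transcripts on GRCh37, with the 12 bases of the motif in capitals.
ATP9A: ctcacaGACAAGACAGGCactcttacc
ATP9B: ttgacaGACAAAACAGGAaccctcacc
ATP8B1: ttctctGATAAGACGGGGacactcaca
ATP11A: ttcacaGACAAGACCGGCaccctcacg
ATP11B: tttacaGATAAAACTGGTacactgaca

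The 5 genes held 5 different versions of the 12 bases. Over the 27 bases, ATP11A had 22 in common with ATP9A, ATP9B had 21, and ATP8B1 and ATP11B had 18. In ATP9A the motif is at codon 391 of 1047. The 27 bases printed for ATP9A begin in exon 12 of 28 and span an intron (chr20:50286638-50287669, minus strand). Those of ATP9B also span an intron (chr18:77037181-77063614, plus strand), whereas those of ATP8B1 (chr18:55355580-55355606), ATP11A (chr13:113485701-113485727) and ATP11B (chr3:182583256-182583282) lie in 1 exon. No word of 75 bases was shared between the transcripts of any of the 9 genes. Words shared with transcripts of genes outside the 9 made up 8.03% of those of ATP9B, 4.0% of those of ATP8B1, 3.34% of those of ATP11B and 3.16% of those of ESYT1.

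TMEM30A, which encodes CDC50A, lies at chr6:75962640-75994664 on the minus strand (ENSG00000112697). It had 153, 137 and 131 CPM in control and 157, 159 and 164 CPM in siRBM3 libraries. The groups did not overlap, with 140 ± 11.2 and 160 ± 3.78 CPM (SD, n = 3 per group), but the gap between control replicate 1 and siRBM3 replicate 3 was small. The log2 fold change was 0.19 (SE 0.09, 95% interval -0.02 to 0.40, edgeR adjusted p = 0.423, exact permutation p = 0.1). This was the smallest adjusted p among the 7 genes that were not chosen by their values. TMEM30B, the other CDC50 gene on the lists, had at most 0.207 CPM in any library.

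ESYT2, a plasma membrane tether, lies at chr7:158523686-158622944 on the minus strand (ENSG00000117868). It had 149, 138 and 150 CPM in control and 238, 234 and 221 CPM in siRBM3 libraries. The lowest siRBM3 library lay above the highest control library, in the values by which the gene was chosen. The means were 146 ± 6.52 and 231 ± 8.70 CPM (SD, n = 3 per group), a fold of 1.58 and a log2 fold change of 0.66 (SE 0.09). That was percentile 97.3 of the tested genes, again a position fixed by the choice. None of its exonic bases was shared with another gene, and 4 of 7088 words of 75 bases occurred elsewhere in the transcripts.

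ESYT1, its paralog, lies at chr12:56512034-56538458 on the plus strand (ENSG00000139641). It had 307, 221 and 232 CPM in control and 266, 258 and 292 CPM in siRBM3 libraries. Control replicate 1 was the highest library of all and the other control libraries the lowest, so the groups overlapped. The log2 fold change was 0.10 (SE 0.14, 95% interval -0.21 to 0.41, edgeR adjusted p = 0.799, exact permutation p = 0.6). Without control replicate 1 it was 0.26 (edgeR adjusted p = 0.258), and without control replicate 3 it was 0.01. Exons of other genes covered 5.94% of the ESYT1 exonic bases, including those of ZC3H10 on the same strand, for which every library had a count of 0. The annotation release and the handling of reads over overlapping genes are not stated. This count therefore does not show that ZC3H10 was not transcribed. ESYT3, the remaining extended synaptotagmin, was not tested and had at most 0.172 CPM.

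The promoters of the ESYT paralogs are printed in the same way, with the same letters in capitals. They lie at chr7:158829460-158829759 on the minus strand for ESYT2 and at chr12:56128017-56128316 on the plus strand for ESYT1 (GRCh38.p14).
ESYT2: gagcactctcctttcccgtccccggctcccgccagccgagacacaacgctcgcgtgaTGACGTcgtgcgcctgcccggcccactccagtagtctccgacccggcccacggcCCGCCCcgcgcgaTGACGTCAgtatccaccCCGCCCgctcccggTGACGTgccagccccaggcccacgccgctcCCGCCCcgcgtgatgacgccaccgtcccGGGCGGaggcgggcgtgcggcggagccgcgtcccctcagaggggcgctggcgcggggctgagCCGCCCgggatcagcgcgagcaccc
ESYT1: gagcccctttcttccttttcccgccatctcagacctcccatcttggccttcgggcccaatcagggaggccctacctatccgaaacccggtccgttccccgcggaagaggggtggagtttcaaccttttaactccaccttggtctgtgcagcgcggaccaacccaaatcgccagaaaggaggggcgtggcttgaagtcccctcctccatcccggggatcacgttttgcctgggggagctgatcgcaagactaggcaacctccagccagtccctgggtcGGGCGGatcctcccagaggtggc

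The ESYT2 window held 4 matches to the cAMP response element core, 2 of them overlapping in a single full palindrome, TGACGTCA. At least 3 such matches were found in 0.276% of all promoters, not matched for GC content, and the palindrome in 1.85%. The ESYT1 window held none of these and 1 GC box, where the ESYT2 window held 5. G and C made up 76.7% of the ESYT2 and 61.7% of the ESYT1 bases. Of the chosen genes, ESYT2 thus held the core and ATP9A did not, and of the paralogs printed here ATP9B held it and ESYT1 did not. Among the other promoters found, that of ATP11A held 1 match and those of ATP8B2 held none.

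None of the 7 genes that were not chosen by their values was called at a fold of 1.5 and an edgeR adjusted p of 0.01, where 0% of the 15099 tested genes were called in all. None had an unadjusted p under 0.05, against 6.56% of the tested genes higher and 6.58% lower in siRBM3. These were 990 and 993 genes, and with library size alone as the scaling 611 were higher and 1130 lower. ATP9B and TMEM30A lay wholly above the controls and ATP11B wholly below, 2 and 1 of 7 genes, where 9.98% and 9.93% of the tested genes did so. DESeq2 called 1.22% of the genes it gave an adjusted p, and none of the 7, whose DESeq2 adjusted p ranged from 0.506 to 0.886. The median log2 fold change of the 7 genes was 0.10, beside -0.01 over all tested genes.

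Levels of different genes were compared per kilobase of exon. In control cells ESYT1 was the highest of the 9 at 48.0 ± 8.89 CPM per kb (SD, n = 3), followed by TMEM30A at 25.5 ± 2.03 and ESYT2 at 20.6 ± 0.92. ATP8B1 (11.7 ± 1.24), ATP9A (11.1 ± 2.02), ATP8B2 (8.86 ± 1.85) and ATP11B (8.52 ± 0.63) came next, and neighbours among these 4 overlapped. ATP11A was at 3.68 ± 0.79 and ATP9B at 1.14 ± 0.06 CPM per kb. In siRBM3 cells ATP9A, at 23.4 ± 0.64 CPM per kb, stood clear above ATP8B1 (13.4 ± 1.47) and was the highest of the 6 P4-ATPase genes. ESYT2, at 32.5 ± 1.23, stood above TMEM30A, at 29.1 ± 0.69. ESYT1 remained first at 51.4 ± 3.32, and ATP8B2 (9.50 ± 0.97), ATP11B (7.54 ± 0.46), ATP11A (3.30 ± 0.19) and ATP9B (1.33 ± 0.15) followed in that order. The changes of place thus came from the genes chosen for their difference.

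**Figure D2:**
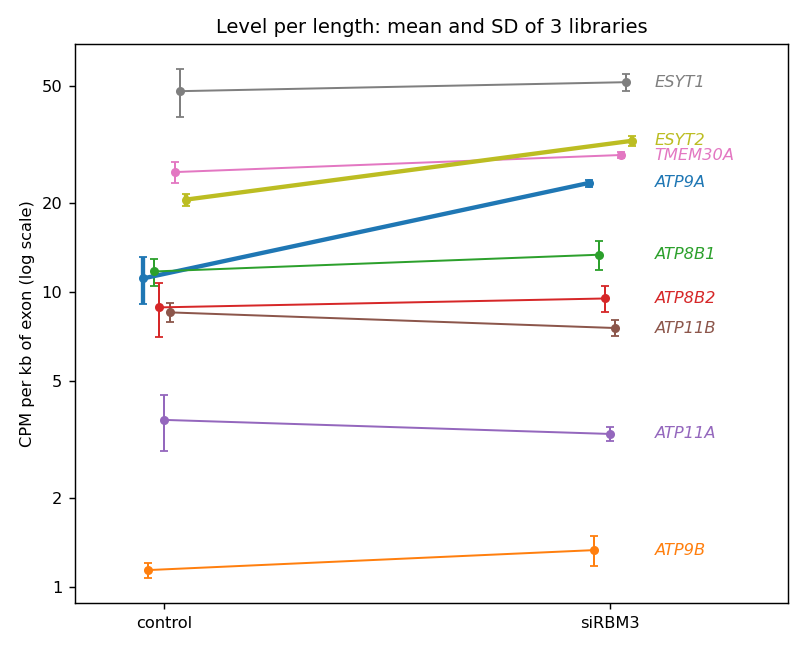
Level per kilobase of exon (CPM per kb, log axis) of the 9 genes in control and siRBM3 cells, with points at the mean and bars at the SD of 3 libraries. The thick lines of ATP9A (11.1 to 23.4) and ESYT2 (20.6 to 32.5) cross those of ATP8B1 and TMEM30A, and the other lines are close to flat.

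Within the pair of CDC50-independent genes, ATP9A made up 91.1%, 88.3% and 92.1% of the summed level per length in control libraries and 94.1%, 95% and 94.8% in siRBM3 libraries. ATP9A was therefore the main transcript of the pair in every library, before and after silencing. Among the 6 P4-ATPase genes the ATP9A share was 22.7%, 21.9% and 29.4% in control and 40.4%, 40.1% and 39.6% in siRBM3 libraries. The summed level of ATP8B1, ATP8B2, ATP11A and ATP11B was 32.8 ± 3.43 CPM per kb in control and 33.7 ± 0.36 in siRBM3 libraries (SD, n = 3 per group), and these groups overlapped. ESYT2 made up 26.6%, 31.8% and 32.5% of ESYT1 plus ESYT2 in control and 40.0%, 40.3% and 36.1% in siRBM3 libraries, so that ESYT1 stayed the larger component. These shares use the values by which ATP9A and ESYT2 were chosen and carry no test. They also depend on the length used. With the longest transcript as the length, the control means were 11.4 CPM per kb for ATP9A and 2.31 for ATP9B. The share of ATP9A in that pair would then be smaller than the one given.

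**Figure D3:**
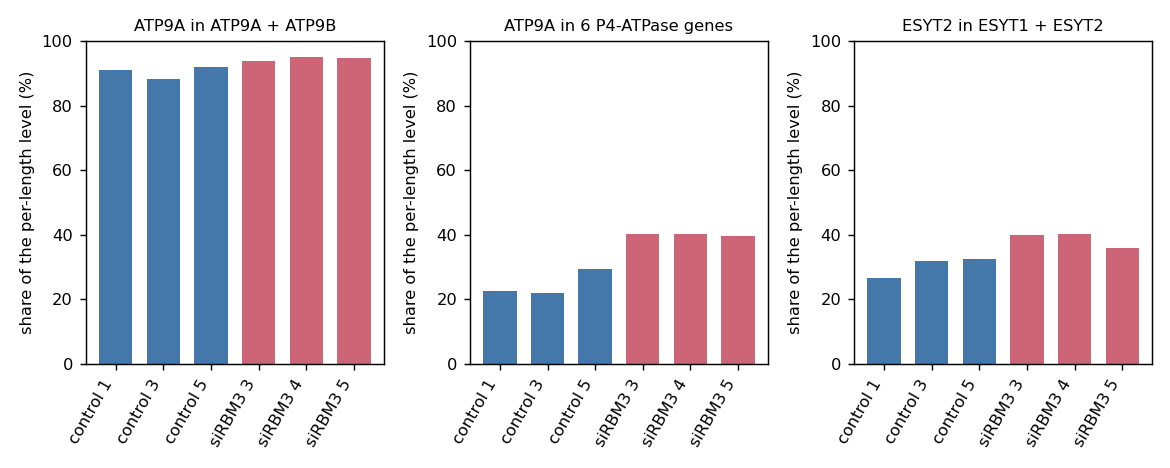
Share (%) of the summed per-length level held by ATP9A or ESYT2 in each of the 6 libraries, control in blue and siRBM3 in red, with 1 bar per library. The share of ATP9A among 6 P4-ATPase genes is at 21.9% to 29.4% in control and 39.6% to 40.4% in siRBM3 libraries.

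The profile of each gene over the 6 libraries was compared with those of 9427 genes of at least 10 CPM, as the root mean square difference of log2 CPM after centring. Nearest to ATP9A were LZTFL1 (0.15), a regulator of ciliary protein traffic, RBPJ (0.17), the DNA-binding factor of Notch signalling, and SCNN1G (0.18), a subunit of the epithelial sodium channel. LZTFL1 had 10.9 ± 0.68 CPM in control and 23.4 ± 2.53 CPM in siRBM3 libraries (SD, n = 3 per group). Nearest to ESYT2 were EIF4EBP2 (0.05), a repressor of cap-dependent translation, TRAPPC2 (0.06), a subunit of a trafficking complex, and PPP2R1B (0.07), a scaffold subunit of protein phosphatase 2A. EIF4EBP2 had 74.0 ± 3.89 and 117 ± 6.24 CPM. ATP9A and ESYT2 differed from each other by 0.25, and ATP9A differed from ATP9B by 0.48. Likeness over 6 libraries mostly reflects the difference between the groups, for which ATP9A and ESYT2 had been chosen.

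The nearest tested protein-coding genes were examined on both sides of each chosen gene. NFATC2, 33.7 kb from ATP9A, had 11.1 ± 1.78 CPM in control and 16.7 ± 2.60 CPM in siRBM3 libraries (SD, n = 3 per group). Its log2 fold change of 0.60 (SE 0.18) did not pass (edgeR adjusted p = 0.230), although the groups did not overlap. SALL4, 13.9 kb away on the other side, was at 5.66 ± 0.40 and 5.93 ± 1.63 CPM (log2 fold change 0.07, edgeR adjusted p = 0.925). Beside ESYT2, DYNC2I1 had 27.8 ± 1.45 and 36 ± 4.63 CPM (log2 fold change 0.37, edgeR adjusted p = 0.270), also without overlap of the groups. NCAPG2 had 110 ± 14.8 and 90.4 ± 29.2 CPM (log2 fold change -0.29, edgeR adjusted p = 0.645), and its groups overlapped, as did those of SALL4. Of all tested genes, 9.98% lay wholly higher in siRBM3, as NFATC2 and DYNC2I1 did.

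Of 8 further P4-ATPase and CDC50 genes that were examined, 4 were tested. None was called, where 0% of all tested genes were. At an unadjusted p under 0.05, where 6.56% of all tested genes were higher in siRBM3, 1 was higher. This was ATP8A1, a phosphatidylserine flippase, which had 9.79, 8.95 and 9.04 CPM in control and 12.5, 11 and 11.6 CPM in siRBM3 libraries. The groups did not overlap (log2 fold change 0.34, SE 0.14, 95% interval 0.03 to 0.65, edgeR adjusted p = 0.346). ATP8B3, at 14.5 ± 0.16 and 14.6 ± 3.82 CPM, had the other positive log2 fold change, 0.01 (edgeR adjusted p = 0.986). ATP10D (-0.20, edgeR adjusted p = 0.509) and ATP8A2 (-0.17, edgeR adjusted p = 0.730) had negative log2 fold changes. The median log2 fold change of the 4 genes was -0.08.

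Scramblases move phospholipids in both directions without ATP, opposite in effect to flippases. Of 15 genes on this list 10 were tested, with a median log2 fold change of 0.04. None was called, where 0% of all tested genes were. In each direction 1 had an unadjusted p under 0.05, beside 6.56% of all tested genes higher and 6.58% lower. PLSCR1, an interferon-induced protein of the phospholipid scramblase family, had 46.1, 104 and 120 CPM in control and 42.2, 41.8 and 40.5 CPM in siRBM3 libraries. Control replicate 1 was thus close to the siRBM3 libraries and the other controls were far above it. The log2 fold change of PLSCR1 was -1.12 (SE 0.31, edgeR adjusted p = 0.215, DESeq2 adjusted p = 0.0104). XKR9 had a log2 fold change of 0.99 at under 1.1 CPM (edgeR adjusted p = 0.330), PLSCR4 0.43 (edgeR adjusted p = 0.385), and ANO9 had -0.19 (edgeR adjusted p = 0.762). ANO6, the calcium-activated scramblase of the plasma membrane, was at 117 ± 6.80 and 130 ± 8.10 CPM (edgeR adjusted p = 0.525).

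**Figure D4:**
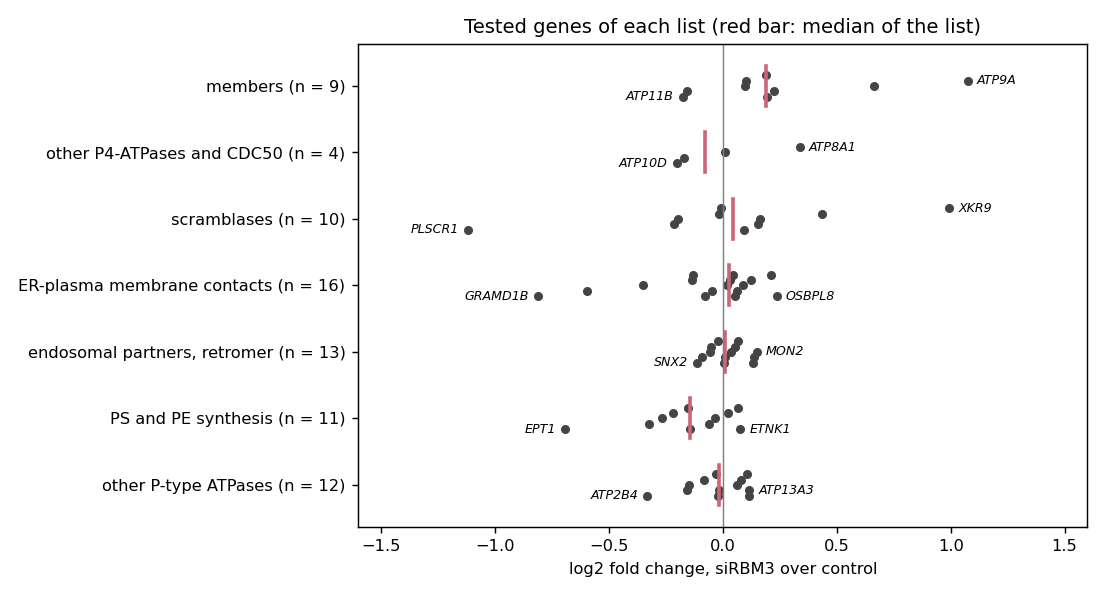
Log2 fold change, siRBM3 over control, of each tested gene of the 9 genes and of 6 related lists, with 1 point per gene, a red bar at the median of the list and a grey line at 0. Members of the lists lie on both sides of 0, list medians apart from the 9 genes are between -0.14 and 0.04, and ATP9A (1.08) and PLSCR1 (-1.12) are at the ends.

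Of 20 genes of contacts between endoplasmic reticulum and plasma membrane, 16 were tested and none was called, where 0% of all tested genes were. At an unadjusted p under 0.05, 3 were lower in siRBM3 and 0 higher, beside 6.58% and 6.56% of all tested genes. The median log2 fold change of the list was 0.03. GRAMD1B, which carries cholesterol from the plasma membrane, had 3.23 ± 0.35 and 1.82 ± 0.26 CPM (log2 fold change -0.81, SE 0.22, edgeR adjusted p = 0.191). OSBPL6, of the oxysterol-binding protein family, had 7.48 ± 0.64 and 4.92 ± 0.81 CPM (log2 fold change -0.60, SE 0.18, edgeR adjusted p = 0.236), and C2CD2L, a phosphatidylinositol transfer protein, had 28.5 ± 2.78 and 22.4 ± 0.60 CPM (log2 fold change -0.35, SE 0.12, edgeR adjusted p = 0.271). On the other side of 0, OSBPL8, which exchanges phosphatidylserine for phosphoinositides, had 0.24 (edgeR adjusted p = 0.480) and GRAMD1C 0.21 (edgeR adjusted p = 0.614).

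The 13 genes of ATP9A's endosomal partners and of retromer were all tested, and none was called or had an unadjusted p under 0.05. Of all tested genes 0% were called, and 6.56% were higher and 6.58% lower at that p. The median log2 fold change of the 13 genes was 0.01, within a range of -0.11 to 0.15. MON2, of a complex with ATP9A, had 35.5 ± 4.04 and 39.4 ± 5.06 CPM (edgeR adjusted p = 0.690), and VPS35, the retromer core, had 263 ± 15.5 and 253 ± 5.55 CPM (edgeR adjusted p = 0.838). SNX1 had 0.14 (edgeR adjusted p = 0.568), SNX2 -0.11 (edgeR adjusted p = 0.668) and SNX5 -0.09 (edgeR adjusted p = 0.759).

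The aminophospholipids phosphatidylserine and phosphatidylethanolamine are the main cargo of many flippases. Of 12 genes of their synthesis and of neighbouring phosphatidylcholine steps, 11 were tested and none was called, where 0% of all tested genes were. At an unadjusted p under 0.05, 1 was lower in siRBM3, beside 6.58% of all tested genes. The median log2 fold change of the list was -0.14. EPT1, an ethanolamine phosphotransferase, had 40.4, 47.7 and 26.9 CPM in control and 25.4, 25.4 and 20.3 CPM in siRBM3 libraries. Its groups did not overlap, yet control replicate 5 was near the siRBM3 libraries (log2 fold change -0.69, SE 0.21, edgeR adjusted p = 0.234). PCYT2, which makes CDP-ethanolamine, had a log2 fold change of -0.33 (edgeR adjusted p = 0.412), and PTDSS1, a phosphatidylserine synthase, had -0.14 (edgeR adjusted p = 0.577). ETNK1, an ethanolamine kinase, and PCYT1A, which makes CDP-choline, at 0.08 and 0.07, had the smallest p among the genes with positive values. Of 14 P-type ATPases of other classes 12 were tested, and none was called or had an unadjusted p under 0.05, with a median log2 fold change of -0.02. Over all tested genes 0% were called, and 6.56% were higher and 6.58% lower at that p. ATP1B3 (-0.16, edgeR adjusted p = 0.462) and ATP13A2 (-0.15, edgeR adjusted p = 0.520) had the smallest p on the lower side, and ATP13A1 (0.11, edgeR adjusted p = 0.689) on the higher side.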

How the data were processed

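RNA-seq of T24 cells was available as 1 table of counts for 6 libraries, 3 per group, grouped by their labels. The authors trimmed reads with BBDuk, used STAR for alignment to GRCh37 and Picard to mark duplicates, and assigned reads to Ensembl genes with featureCounts, and the deposited values are whole-number counts without normalization. The annotation release, the strand setting and the handling of marked duplicates are not stated in the labels or methods read here. Without a known strand setting, reads of overlapping genes on opposite strands cannot be told apart, so the values of ATP8B1, ATP9B, ATP11B and ESYT1 carry that limit.

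Genes were kept with edgeR's filterByExpr (at least 10 counts in enough libraries and 15 in total). Libraries were scaled with TMM factors, and the groups were compared over all 15099 genes with edgeR's quasi-likelihood test (edgeR 4.0.16, R 4.3.3) and Benjamini-Hochberg adjustment, with a call at a fold of 1.5 and an adjusted p of 0.01. The pipeline was run on simulated counts as a check of the code, which does not show that its assumptions hold for these libraries. Exact two-sided permutation tests over libraries were run for single genes. Levels per length used the union of GENCODE exons on GRCh37, to which 55665 of 63677 identifiers were matched. Library totals were 23603992 to 45098612 counts, and the spread between libraries includes counting error, which weighs most for ATP9B, the gene of the 9 with the fewest reads. The study's own methods used DESeq2 with these thresholds, so the edgeR counts are not its outcome. Alternatives were DESeq2 1.42.0, limma-voom (limma 3.58.1), other scalings and filters, a replicate block and leaving out each library.

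The 9 genes and the lists were chosen with earlier results of these data known. Named genes were the 9 genes, RBM3, the 2 tested genes of each list with the smallest p in each direction, the 3 genes nearest in profile to ATP9A and to ESYT2, neighbours on the chromosome, and genes with overlapping exons. C2CD2L, ANO6, TMEM30B, ESYT3, VPS35, PTDSS1 and marker genes were named after their values were seen. ORAI1 and PECAM1, the 2 listed genes with no match by symbol, were not analysed here. Protein sequences were not used here. Some listed genes and 1 motif sequence are not reported here, and the lists were counted without them.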

Additional observations from a re-analysis of the deposited data

How the results depend on the processing

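The log2 fold changes of ATP9A and ESYT2 kept their sign under all 13 alternatives, at 0.95 to 1.21 and 0.63 to 0.69 when each library was left out in turn. Both genes were chosen by their rise in these same libraries, so a kept sign is no support for that rise. The log2 fold changes of ATP9B (0.13 to 0.28), ATP8B1 (0.10 to 0.25), ATP11B (-0.23 to -0.12), TMEM30A (0.15 to 0.26) and ESYT1 (0.01 to 0.26) also kept their sign. The sign of ATP8B2 turned to -0.038 without control replicate 3 (range -0.038 to 0.26), and that of ATP11A to 0.03 without control replicate 1 (range -0.25 to 0.03). The cause was not tested. RBM3 ranged from -2.40 to -1.96 when a library was left out, and it was called without a filter, with DESeq2 and with the replicate block.

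The number of genes called depended on the tool and filter. Beside 0 higher and 0 lower with edgeR as described, there were 127 and 152 without a filter on low counts, 84 and 75 with DESeq2, 0 and 0 with limma-voom, and 145 and 191 with a replicate block. Without 1 library the count called lower ranged from 0 to 1, the 1 being without control replicate 1. At an unadjusted p under 0.05, 990 genes were higher and 993 lower. With library size alone as the scaling 611 were higher and 1130 lower, and with the replicate block 1714 were higher and 2031 lower. Of the 7 genes not chosen by their values, 0 had an unadjusted p under 0.05, 3 had one with the replicate block, and 0 to 2 when a library was left out, 2 being without control replicate 1. More genes of the whole table passed in these settings too. With the replicate block the 1714 and 2031 genes were of 15099 tested. Without control replicate 1, 1141 genes were higher and 1325 lower at that p, of 15341 tested. These counts of the 7 genes are thus no result particular to them. Only replicate numbers 3 and 5 occurred in both groups, and deviations of the same-numbered libraries correlated at 0.53 and 0.09. Control replicate 1 and siRBM3 replicate 4 had no partner, so the contrast with the replicate block rested on the other libraries. With only 2 same-numbered pairs, and no label that says what a number marks, a pairing was not established.

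The order of levels per length was the same with the longest transcript as the length, although 8 of the 9 levels moved. With 3 libraries per group, a missed threshold does not show that the groups were alike.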
